A study of Caenorhabditis elegans with 4 samples.

Results

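The numbered col genes form the bulk of the cuticle collagen family of Caenorhabditis elegans. Members were taken by name: every gene whose current symbol is col followed by a number and that had a probe of its own on the array, apart from 5 adult-stage members, col-7, col-19, col-62, col-119 and col-140. This gave 129 genes of the 14943 named genes on the array, and 128 of them were tested, because col-52 had values on preps 1 and 4 only. All 128 had a value on each of the 4 arrays. A further 25 numbered col genes of the RefSeq gene table (assembly WBcel235) had no probe of their own and were not analysed here.

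The cuticle of the worm is built from small collagens that the epidermis secretes. It is made anew at each moult, and the genes are switched on in waves within each moulting cycle, with some members used at every stage and others tied to the dauer larva, the last larval stage or the adult. After synthesis the chains are hydroxylated on proline, folded as trimers, trimmed by proteases and crosslinked.

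On 4 two-channel arrays, total RNA of glp-4 L4 animals, which are in their last larval stage, was set against RNA of wild-type animals of mixed stage, with 1 glp-4 prep on each array. Mutants of glp-4, a valyl-tRNA synthetase gene, are known for a germline that does not proliferate at the restrictive temperature. Allele, growth temperature and staging are not in the labels, so the labels do not give the state of the germline. The counterpart of every value was the wild-type mixed-stage pool, which holds other stages as well as another genotype, and the arrays do not separate stage from genotype. A value is a log2 ratio. The order in which the labels name both RNAs puts glp-4 L4 on top and the reference below, which makes this direction likely and not certain. Higher and lower have this meaning throughout, and with the ratio turned the counts of higher and lower genes and the highest and lowest ranks would change places. Nothing in the labels says that the preps were separate cultures, and each p-value covers only prep-to-prep spread, which may be technical.

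RNA of oocyte, maternal and sperm genes was low in all preps. These lists cover gamete and maternal genes only, and the state of the germline itself was not tested. All 8 oocyte and maternal marker genes were lower (list median -4.48 ± 0.21, SD over 4 preps), and all 6 sperm markers were lower. The 5 sperm markers with a value on all arrays had a median of -2.98 ± 0.20. Of 9 measured epidermis markers 4 were higher and 2 lower (median 0.78 ± 0.45), where 20.6% and 24.4% of all items were. The higher ones were noah-1, wrt-2 and the cuticle collagens dpy-7 and rol-6, which are counted among the named cuticle collagens too, and the lower ones were the epidermal transcription factor genes elt-3 (-0.41 ± 0.17) and nhr-25 (-0.38 ± 0.10). In RNA of whole animals, fewer cells of a type and less RNA per cell cannot be told apart. The part that the low oocyte, maternal and sperm RNA had in the collagen ratios was not tested.

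Most numbered col genes were higher in glp-4 L4 animals, and a smaller set was much lower. Of the 128 tested members 71 (55.5%) were higher, against 20.6% of all 19989 items tested, which are the named genes and the probes without a single gene name. Another 21 members (16.4%) were lower, against 24.4% of all items, and 36 did not pass. A call is an adjusted p under 0.05 from limma, a linear model fitted across all items with Benjamini-Hochberg adjustment, and 45% of all items were called in either direction. The family median was 1.22 on prep 1, 1.21 on prep 2, 0.71 on prep 3 and 0.38 on prep 4, a mean of 0.88 ± 0.41 (SD, n = 4). The median over all items was -0.04 ± 0.06. The family median was above the median of all items on each array and was higher on preps 1 and 2 than on preps 3 and 4.

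The family spanned 10.2 log2 units, from col-36 at -4.70 to col-120 at 5.47. The quartiles of the members' means were -0.04 and 1.95, while those of all items were -0.47 and 0.34. At 1 or more, a difference of at least 2-fold, lay 59 members, and at -1 or less lay 21. The size of the ratio and the call did not always go together: the smallest called mean was 0.39, that of col-9, and the largest mean without a call was -1.26, that of col-50.

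**Figure D1:**
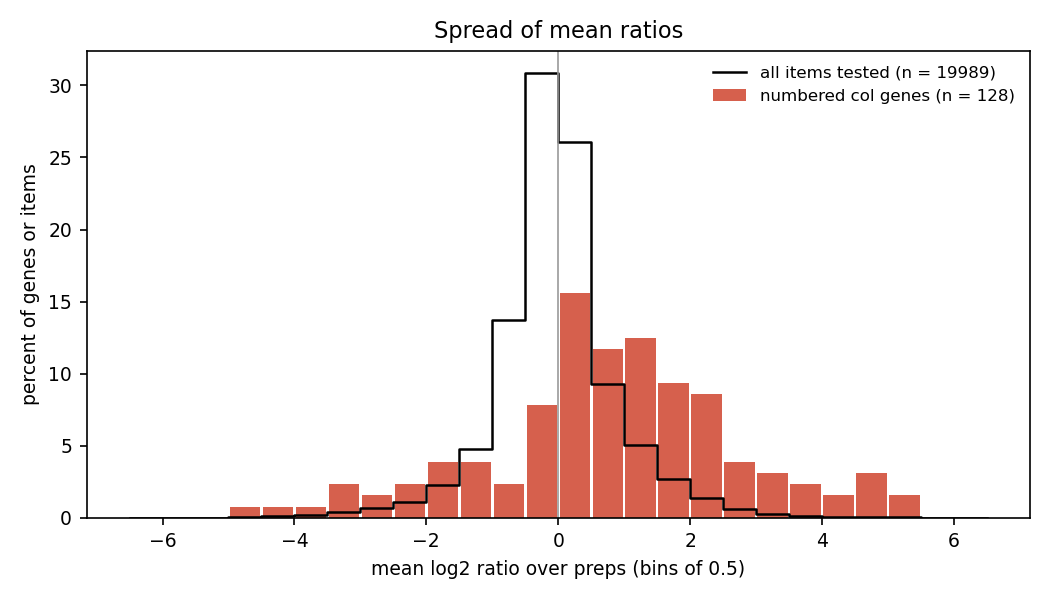
Percent of the 128 numbered col genes (bars) and of all 19989 items tested (line) in each bin of the mean log2 ratio over preps (x axis, bins of 0.5). The bars run from -5 to 5.5, and the line runs slightly further on both sides. Below -1.5 and above 0.5 the bars lie above the line as far as they reach, and most of the genes lie above 0.

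The collagens taken here as known from the L4 stage were among the highest. The genes col-38, col-49 and col-63 are known to peak in the L4 larva. The gene col-38 had log2 ratios of 4.54, 4.88, 5.20 and 5.34 on preps 1 to 4, a mean of 4.99 ± 0.36 or 31.8-fold (limma adjusted p = 1.3e-06). For col-49 the ratios were 4.04, 4.84, 4.75 and 4.77, with a mean of 4.60 ± 0.38 (limma adjusted p = 1.5e-06). For col-63 they were 5.02, 4.45, 3.81 and 4.40, with a mean of 4.42 ± 0.50 (limma adjusted p = 2.3e-06). All 12 values lay above 3.8, and the genes did not share an order of preps: col-38 and col-49 were lowest on prep 1, where col-63 was highest.

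The highest member, col-120, varied little. It is a collagen studied for its part in long-lived mutants, and had 5.56, 5.21, 5.44 and 5.67, a mean of 5.47 ± 0.19 or 44.3-fold (limma adjusted p = 6.6e-07). Next came col-138, with 5.76, 4.78, 5.31 and 4.40 and a mean of 5.06 ± 0.60 (limma adjusted p = 2.2e-06). The gene col-138 was not in the list of known members used here, so no stage was assigned to it.

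The other members of the upper 10 were all cuticle collagens with no stage assigned here. The gene col-175 had 3.74, 4.49, 5.53 and 5.55, with a mean of 4.83 ± 0.88, and col-60 had 5.02, 4.57, 4.85 and 4.76, with a mean of 4.80 ± 0.19. Thus col-175 was lower on preps 1 and 2 than on preps 3 and 4, while col-60, at almost the same mean, was not. The values of col-79 were 4.10, 4.12, 4.27 and 4.72 (mean 4.30 ± 0.29), and those of col-110 were 3.21, 3.91, 4.25 and 4.20 (mean 3.89 ± 0.48). For col-88 they were 3.71, 4.04, 4.04 and 3.47 (mean 3.82 ± 0.28). None of these 5 genes had a limma adjusted p above 8.6e-06.

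Below these, 5 further members had means from 3 to 4. They were col-149 at 3.55 ± 0.48, col-104 at 3.44 ± 0.32, col-150 at 3.29 ± 0.15, col-161 at 3.14 ± 0.31 and col-73 at 3.05 ± 0.28. A group of 16 had means from 2 to 3, all called, running from col-77 at 2.99 ± 0.57 down to col-156 at 2.01 ± 1.25. The spread differed widely within that band: col-152 had 2.29, 2.34, 2.21 and 2.24, an SD of 0.06, whereas col-156 had 3.13, 3.00, 1.27 and 0.65. The probes of col-156 differed: one had 2.89, 3.21, -0.35 and -0.79, the other 3.37, 2.80, 2.88 and 2.09, so that only the first set preps 3 and 4 apart. A group of 28 had means from 1 to 2, from col-91 at 1.95 ± 0.56 to col-92 at 1.02 ± 0.94.

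Among the members with moderate ratios were several that are well known. The tandem genes col-12 and col-13 encode near-identical collagens, and col-12 is known to come late in each moulting cycle. They had 2.42, 2.41, 1.71 and 1.24 (col-12, mean 1.95 ± 0.57, limma adjusted p = 0.00017) and 2.32, 2.40, 1.36 and 1.34 (col-13, mean 1.85 ± 0.59, limma adjusted p = 0.00024). The copies moved together over the preps, and since near-identical transcripts can bind each other's probes, their values are not separate evidence. The gene col-17, known to be under the control of the heterochronic timing genes, had 1.15, 1.78, 2.02 and 2.22, a mean of 1.79 ± 0.47 (limma adjusted p = 0.00014), and so had the opposite order of preps. The gene col-10, like col-13 and col-120 studied in long-lived mutants, had 1.09, 1.32, 0.74 and 0.69, a mean of 0.96 ± 0.30 (limma adjusted p = 0.0014).

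**Figure D2:**
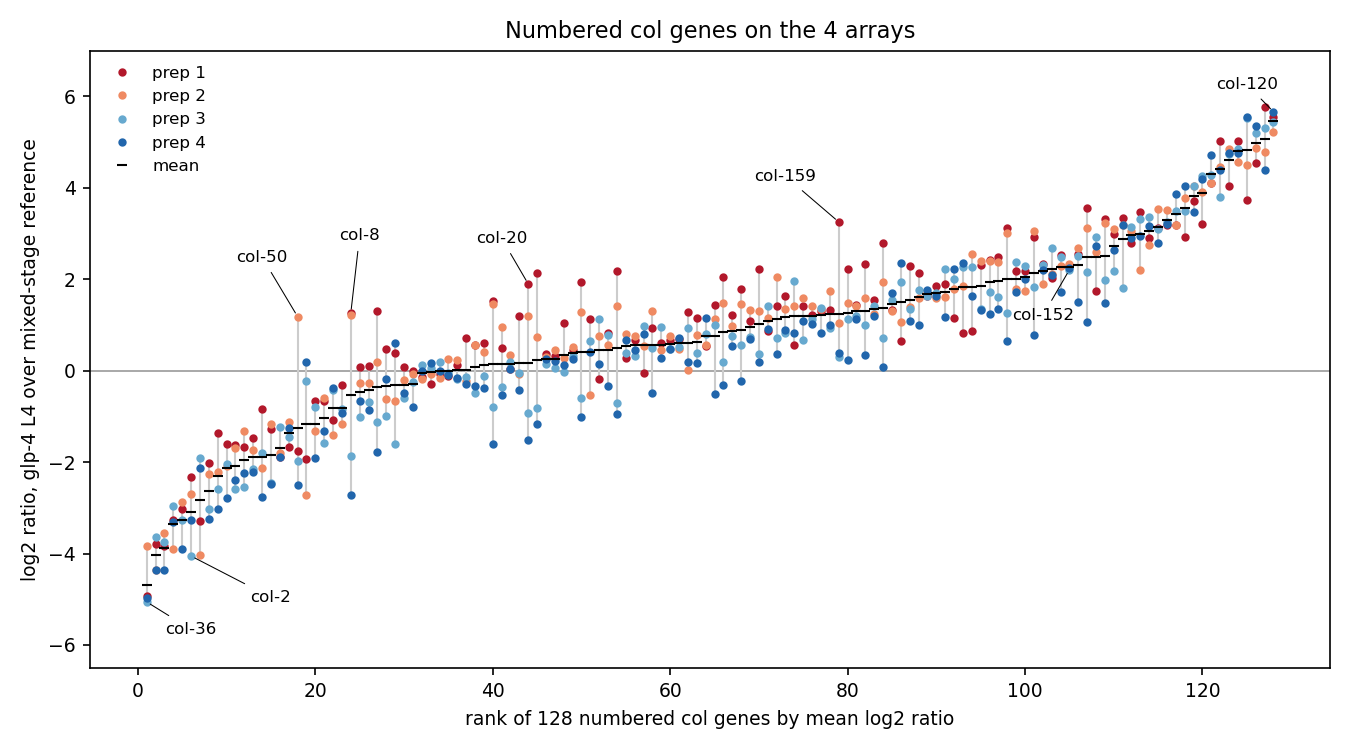
Log2 ratio (y axis) of each of the 128 numbered col genes on the 4 arrays, with the genes ordered along the x axis by their mean. Dots are single preps, coloured by prep, grey lines give the range and black dashes the mean. The genes run from col-36 at -4.70 to col-120 at 5.47, and genes of similar mean, such as col-152 and its neighbours, differ widely in range.

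The dauer collagens were lower. The gene col-2 is known from the dauer larva, the resting form that can replace the third larval stage, and col-40 from the dauer and the larva that precedes it. The log2 ratios of col-2 were -2.31, -2.69, -4.05 and -3.26, with a mean of -3.08 ± 0.76 or 8.46-fold lower (limma adjusted p = 4.4e-05). Those of col-40 were -0.83, -2.13, -1.80 and -2.76, with a mean of -1.88 ± 0.80 (limma adjusted p = 0.00077), and without moderation of the variances its adjusted p was 0.060. Both genes were below 0 on each array, and prep 1 was nearest to 0. A list of 4 other genes was taken as dauer markers, without a check that they are tied to the dauer. All 4 were lower, with medians of -3.88, -4.08, -4.40 and -4.81 on preps 1 to 4. Their means were -4.14 for cut-1, -1.09 for cut-6, -4.50 for hsp-12.6 and -4.80 for sip-1. Whether dauer larvae in the reference set these values was not tested, and such genes need not be confined to the dauer. The means of hsp-12.6 and sip-1 were near the median of the oocyte and maternal markers (-4.48). The list therefore does not set low dauer RNA apart from low maternal RNA.

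The lowest member was col-36, a cuticle collagen with no stage assigned here, with -4.92, -3.84, -5.06 and -4.97 and a mean of -4.70 ± 0.58 or 25.9-fold lower (limma adjusted p = 2.6e-06). Prep 2 lay above the other preps for this gene. It was followed by col-84 at -3.80, -4.35, -3.64 and -4.35 (mean -4.04 ± 0.37) and col-45 at -3.84, -3.56, -3.76 and -4.35 (mean -3.88 ± 0.34). Next were col-158 at -3.27, -3.90, -2.95 and -3.31 (mean -3.36 ± 0.39) and col-123 at -3.02, -2.87, -3.27 and -3.89 (mean -3.26 ± 0.45). None of these 4 genes had a limma adjusted p above 6.7e-06. The probes of col-123 differed, with means from -4.07 to -1.67.

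Of the rest of the lowest 10, col-116 had -2.02, -2.27, -3.04 and -3.24 (mean -2.64 ± 0.59) and col-37 had -1.37, -2.21, -2.58 and -3.04 (mean -2.30 ± 0.70). Both were nearer to 0 on preps 1 and 2. The gene col-164 had -3.29, -4.04, -1.90 and -2.12 (mean -2.84 ± 1.01), nearer to 0 on preps 3 and 4. Its probes differed: one had -3.70, -3.99, -3.92 and -4.18, the other -2.89, -4.08, 0.11 and -0.05, so that only the second set preps 3 and 4 apart. In a fit per probe they were not both called. For col-72 the ratios were -1.60, -2.08, -2.04 and -2.78 (mean -2.12 ± 0.49). These 4 genes had a limma adjusted p of at most 0.00022.

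The other 10 lower members, col-2 and col-40 aside, had means from -2.08 (col-85) to -0.82 (col-105). They were col-85, col-165 at -1.94 ± 0.55, col-114 at -1.89 ± 0.35, col-183 at -1.85 ± 0.72, col-121 at -1.70 ± 0.31, col-74 at -1.37 ± 0.24, col-41 at -1.17 ± 0.57, col-51 at -1.04 ± 0.49, col-35 at -0.82 ± 0.51 and col-105 at -0.82 ± 0.36. The probes of col-35 differed: 1 had -0.01, 0.06, -0.24 and -0.21, the other -2.13, -2.89, -0.62 and -0.54. By the means of their probes, all 21 lower members had the same sign on 4 of 4 arrays. Of the 71 higher members 69 did, the exceptions being col-94, at -0.23 on prep 4, and col-151, at -0.04 on prep 1.

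The 36 members that did not pass had means from -1.26 to 0.85. Among them was col-99, a transmembrane collagen that is no part of the cuticle, with 0.33, 0.46, 0.05 and 0.21 (mean 0.26 ± 0.17, limma adjusted p = 0.16). The gene col-34 had 1.03, 0.28, -0.02 and 0.12 (mean 0.35 ± 0.47, limma adjusted p = 0.17). Only 5 of the 36 had 1 sign on all arrays: col-117, col-99, col-172, col-75 and col-118. Missing the threshold does not show that these genes were level with the reference, since their median SD was 0.59, against 0.38 for the higher and 0.49 for the lower members.

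The preps differed more in the numbered col genes than over the items at large. The median SD over the 4 preps was 0.47 for members and 0.30 for all items on all arrays. Among genes and items with an absolute mean of at least 1, it was 0.48 for 80 members and 0.37 for 3805 items. An SD over 1 was found for 17 members (13.3%), against 1.70% of items, and a range over the preps of at least 2 for 19 members (14.8%), against 2.37% of items. Of these 19, 11 were not called. At the other end 13 members (10.2%) had an SD under 0.16, close to the 13.7% of items that did.

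The spread had a common direction. Preps 3 and 4 share a code and a date in their titles, which the labels do not explain, and preps 1 and 2 have their own. For 63 of 128 members (49.2%) both preps 1 and 2 lay above both preps 3 and 4, against 22.6% of 19400 items on all arrays. For 19 members (14.8%) both lay below, against 21.3% of items, and for 46 the preps overlapped. Prep 4 held the lowest value of 60 members (46.9%, against 22.2% of items) and prep 1 the highest of 57 (44.5%, against 29.8% of items). The 63 members had medians of 1.32, 1.19, 0.33 and 0.12 on preps 1 to 4, and 31 of them were higher, 10 lower and 22 not called. No test of this difference was made, as the preps are 1 group and the division was looked at after the values were seen.

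**Figure D3:**
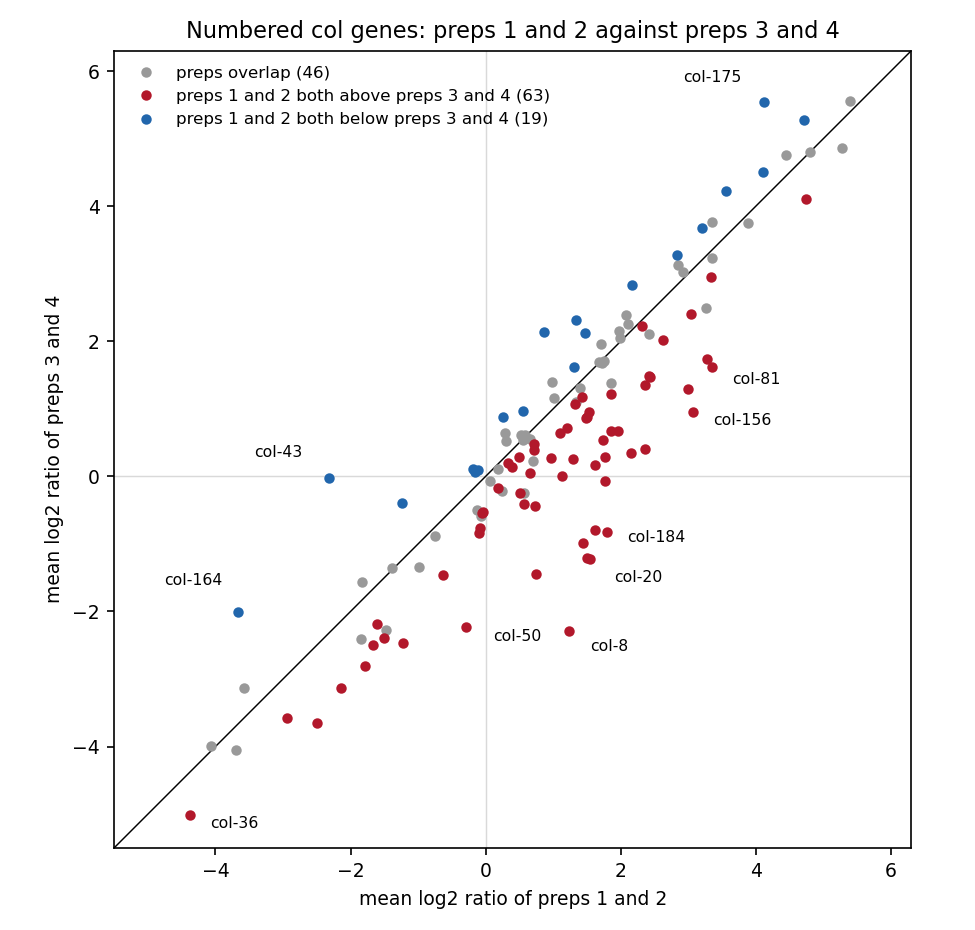
Mean log2 ratio of preps 1 and 2 (x axis) against that of preps 3 and 4 (y axis) for the 128 numbered col genes, with the line of equal values. Red marks the 63 genes with both preps 1 and 2 above preps 3 and 4, blue the 19 with both below, grey the 46 whose preps overlap. The red genes lie furthest from the line around col-8 and col-20, in the middle of the range.

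Of the genes that differed most between the preps, most changed sign. Over the members, 27 were lower on preps 3 and 4 by at least 1 log2 unit in the mean (21.1%, against 2.37% of items), and 8 by at least 2 (6.25%, against 0.33% of items), among them col-156 through 1 of its probes. The gene col-8 was the most extreme, with 1.26, 1.22, -1.86 and -2.71, a difference of 3.52 between the means of preps 1 and 2 and of preps 3 and 4. For col-20 the values were 1.90, 1.19, -0.93 and -1.51, and for col-179 they were 1.53, 1.46, -0.80 and -1.61.

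For col-184 the values were 2.19, 1.41, -0.72 and -0.94, and for col-122 they were 2.15, 0.74, -0.82 and -1.16. In each of these 5 genes preps 1 and 2 lay above 0 and preps 3 and 4 below it. In all, 11 members (8.59%, against 4.19% of items) had this pattern, the others being col-181, col-162, col-89, col-102, col-177 and col-178. Means near 0 in such genes, for example 0.16 ± 1.64 for col-20 (limma adjusted p = 0.81), therefore stand for opposite ratios in different preps.

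Higher members took part as well. The gene col-81 had 3.56, 3.13, 2.17 and 1.07, col-139 had 2.93, 3.07, 1.82 and 0.77, and col-80 had 2.80, 1.93, 0.72 and 0.08. They were called (limma adjusted p of 0.00073, 0.0014 and 0.020), and prep 4 was the lowest for each. The gene col-159 had 3.26 on prep 1 and 1.04, 0.30 and 0.40 on the others, so that 1 prep set most of its mean of 1.25 ± 1.38 (limma adjusted p = 0.046).

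The gene col-50 stood apart in another way. It had -1.77, 1.19, -1.97 and -2.50, so prep 2 alone lay above 0. It was not called over the 4 preps (limma adjusted p = 0.080), and without prep 2 its mean was -2.08 (limma adjusted p = 0.00016). That second result leaves out the prep that was seen to differ, and prep 2 was not among the outlying values flagged below. The neighbour of col-50 on the chromosome, col-51, had -0.65, -0.60, -1.58 and -1.33, with prep 2 close to prep 1.

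A smaller set went the opposite way. The gene col-43 had -1.93, -2.72, -0.23 and 0.19, a difference of -2.30 between preps 1 and 2 and preps 3 and 4, and was not called. After it came col-164, through 1 of its probes, and col-175, both given above, and col-128, with 0.65, 1.07, 1.93 and 2.35. Only these 4 members were higher on preps 3 and 4 by at least 1 (3.12%, against 1.59% of items). Of the 19 members with preps 1 and 2 below, 13 were higher and 2 lower. The lower ones were col-164 and col-35, each with this order through 1 of its probes. The 19 included col-17, col-38, col-79, col-104 and col-110.

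Adult-stage col genes and furrow collagens stood on either side of this division. The 5 adult-stage col genes left out by the rule all had preps 1 and 2 above preps 3 and 4, with medians of 2.15, 1.26, -0.60 and -1.76. Among them col-19, the standard marker of the adult cuticle, had 2.15, 1.26, -0.60 and -1.89. It was not called, and neither were col-119 and col-140. By contrast, col-7 (4.68, 4.51, 3.46 and 1.95) and col-62 (5.16, 3.98, 3.34 and 2.04) were above 0 on each array and were called higher. The yolk genes vit-2, vit-5 and vit-6, made in the adult intestine, had medians of -1.58, -3.76, -4.01 and -5.51. Of these 3, vit-5 and vit-6 had preps 1 and 2 above preps 3 and 4, while the preps of vit-2 overlapped, with -2.72, -4.64, -3.57 and -5.51. All 5 measured furrow collagens, dpy-2, dpy-3, dpy-7, dpy-8 and dpy-9, which build the circumferential furrows and are known to come early in each moulting cycle, had preps 1 and 2 below preps 3 and 4, with medians of 1.01, 1.48, 2.43 and 2.39. Epidermis markers had medians of 0.70, 0.25, 1.34 and 0.85. Whether stage, culture or what the title codes stand for set these differences was not tested, and the preps that share a code cannot be told apart from it.

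**Figure D4:**
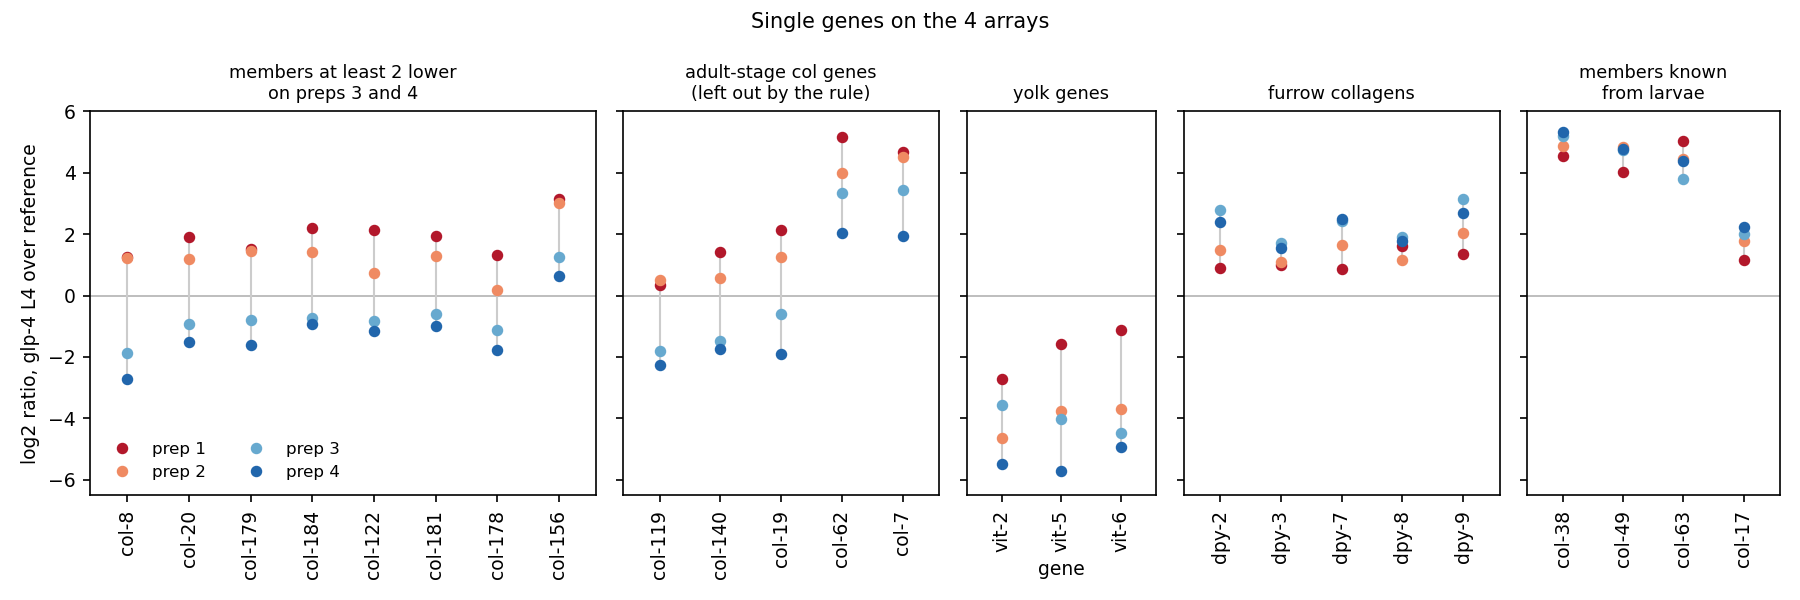
Log2 ratio (y axis) of single genes on each of the 4 arrays, in 5 panels: the 8 numbered col genes at least 2 lower on preps 3 and 4 (col-156 as the mean of its probes), the adult-stage col genes, the yolk genes, the furrow collagens, and numbered col genes known from larvae. Dots are single preps and grey lines the range. Preps 1 and 2 lie above preps 3 and 4 in the first and second panels and below them in the furrow panel.

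The steadiest members stood at several levels. The genes with an SD under 0.16 included col-150 at 3.29 and col-182 at 2.98 ± 0.15, col-152 at 2.27, col-130 at 1.70 ± 0.11, col-173 at 1.69 ± 0.07, col-144 at 1.30 ± 0.15, col-131 at 0.60 ± 0.12 and col-174 at 0.59 ± 0.14. For col-173 the single values were 1.64, 1.71, 1.62 and 1.77. The remaining ones, col-9, col-172, col-75, col-86 and col-53, had means from -0.05 to 0.39. Among higher members a steady ratio was thus not tied to a ratio near 0, while no lower member had an SD under 0.16.

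Numbered col genes often lie beside each other, and neighbours were alike in some places and far apart in others. In the RefSeq gene table, 34 members formed 15 runs with no other protein-coding gene between them, the longest of 3 genes. The runs hold 19 adjacent pairs, whose means differed by a median of 0.69, against 1.78 over all 8128 pairs of members. In 9 pairs the means lay within 0.5 of each other, and 8 of the 19 pairs were called the same way. Over the 19 pairs the Pearson correlation of the neighbours' means was 0.23. The shares of all pairs within 0.5, called alike or more than 2 apart were not worked out. The run col-92, col-93 and col-94 on chromosome III had 1.02, 1.32 and 0.89, and its members shared their order of preps, highest on prep 1 and lowest on prep 4. This order was common in the family: prep 1 was highest for 44.5% of members and prep 4 lowest for 46.9%. On chromosome V, col-141 and col-142 had 1.22 and 1.26, col-149 and col-150 had 3.55 and 3.29, and on chromosome IV col-126 and col-127 had 2.26 and 2.32. Near-identical neighbours can share probe signal, and sequences were not used here to judge it.

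In 4 adjacent pairs the means lay more than 2 apart. The pair col-104 and col-105 on chromosome IV was the widest and the only one called in opposite directions, col-104 at 3.44 and col-105 at -0.82. On chromosome II, col-79 at 4.30 lay beside col-39 at 0.57, and col-73 at 3.05 beside col-20 at 0.16, which in turn lay beside col-17 at 1.79. On the X chromosome col-183 at -1.85 lay beside col-184 at 0.49. Across col-17, col-20 and col-73, the middle gene was the one with preps 1 and 2 above preps 3 and 4, and both outer genes had the opposite order.

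**Figure D5:**
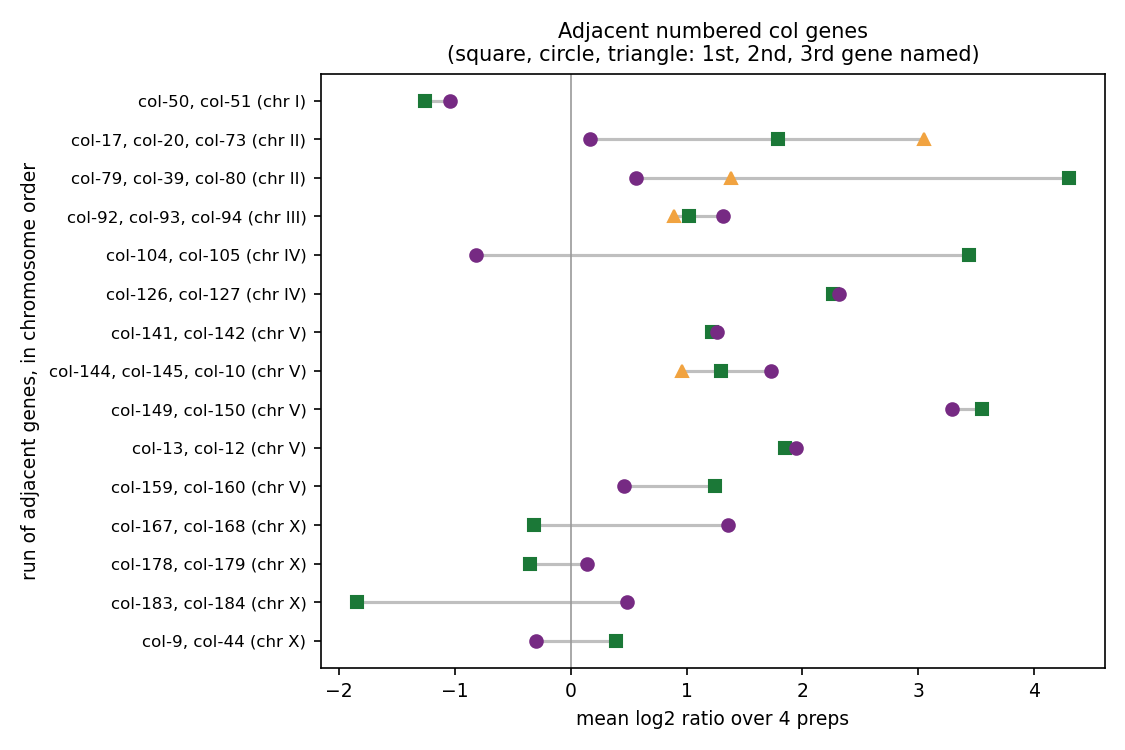
Mean log2 ratio over 4 preps (x axis) of numbered col genes that are adjacent among the protein-coding genes of the RefSeq table, 1 run per row with its chromosome. Symbols give the genes in the order named and grey lines join a run. The col-126 and col-127 pair lies within 0.06, and col-104 and col-105 lie 4.25 apart.

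By chromosome, the members' medians ran from 0.39 on X (23 genes, 10 higher and 4 lower) to 1.26 on V (28 genes, 20 higher and 2 lower). On chromosome III 8 of 10 members were higher, and the other two, col-8 and col-89, were not called. Chromosome II held 10 higher and 6 lower of 21, and both the lowest member, col-36, and col-38. The medians of all genes on these chromosomes were 0.12 on X, 0.07 on V, -0.14 on III and -0.06 on II, so the order of the members' medians was not that of all genes.

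The 19 members with more than 1 probe allow a check within the array. Their probe means differed by a median of 0.24, and for col-2 by 0.07. For 6 members the probes lay more than 1 apart: col-123, col-164, col-167, col-156, col-166 and col-35. Probes of 3 members lay on opposite sides of 0, those of col-167 at -0.89 and 0.87, of col-166 at -0.71 and 0.74, and of col-53 at -0.10 and 0.001.

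Other collagen genes and genes of collagen processing were mostly higher too, where 20.6% of all items were higher and 24.4% lower. Of 17 measured cuticle collagens known by their dpy, sqt, rol, bli and lon names, the furrow collagens among them, 15 were higher and 1 lower (median 1.96 ± 0.35). The lower one was dpy-17, at -2.60 ± 0.25 (limma adjusted p = 6.5e-06). Of these 17, 0 had preps 1 and 2 above preps 3 and 4, against 22.6% of items on all arrays. In 8 of them preps 1 and 2 lay below, against 21.3% of items. These 8 were the 5 furrow collagens given above and bli-2, rol-6 and rol-8. Of 13 genes of collagen processing 11 were higher and the other two, phy-4 and tsp-15, were not called, with a list median of 0.97 ± 0.18. Among the 11 were dpy-18, a prolyl 4-hydroxylase subunit, at 1.76 ± 0.43 (limma adjusted p = 0.00012) and dpy-31, a procollagen protease, at 1.17 ± 1.06 (limma adjusted p = 0.024). The values of dpy-31 were -0.04, 0.90, 2.51 and 1.32 on preps 1 to 4, so prep 1 was not above 0. In 6 of the 13 processing genes preps 1 and 2 lay below preps 3 and 4, and in 2 above (21.3% and 22.6% of items). Of the basement membrane collagens, emb-9 was higher at 0.93 ± 0.35 (limma adjusted p = 0.0022), cle-1 lower at -0.89 ± 0.59 (limma adjusted p = 0.011), and let-2 had 0.24 ± 0.42 (limma adjusted p = 0.31).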

How the data were processed

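Each array was deposited as log2 ratios of its channels. The base was read from the values, whose ratios are whole thousandths; the labels give both channels. Direction, scanner, background correction, dye normalization and removal of spots: each is not given in the sources used here. No test includes the spread of the reference, the sole counterpart. Intensities were not used here, so dim or saturated spots were not set apart. Precision is limited by having 4 arrays.

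Symbols of the platform annotation were brought up to date with RefSeq (WBcel235) through gene ID (16360 probes), accession (8) or symbol and locus tag (82). Of 21632 probes 16450 had 1 symbol, 247 several and 4935 none here. Probes of a gene were averaged per array. Items with values on at least 3 arrays were compared with 0, two-sided, by lmFit and eBayes of limma 3.58.1 under R 4.3.3 (Benjamini-Hochberg over 19989 items), after the script was tested on simulated data. Errors are SDs over 4 preps. Members were named as the 10 highest and 10 lowest called with 1 sign, the 6 with the widest range and a list of known members. The members and lists were chosen with earlier results of these data known, and the genes named otherwise were chosen after their values were seen. Of the known members, col-1, col-3, col-6 and col-14 had no probe of their own under those names. Alternatives were centring, scaling, filters, each prep left out, preps 3 and 4 averaged, a fit per probe, moderation, thresholds and unchanged symbols.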

Additional observations from a re-analysis of the deposited data

Results flagged for a closer look

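For 2 genes 1 prep lay far from the other 3 by Dixon's ratio. The L4 collagen col-49 was at 4.04 on prep 1 while the remaining preps lay between 4.75 and 4.84. The lowest member, col-36, was at -3.84 on prep 2, and the remaining preps lay between -5.06 and -4.92. This was looked for in 34 sets of values, where about 1.7 would be picked out by chance, at 1 in 20.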

How the results depend on the processing

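Under the alternatives run, the family median stayed above 0 (0.77 to 1.05 with single preps left out), and the counts of higher and lower members stayed within 1.5 times of 71 and 21. With single preps left out there were 62 to 72 higher and 21 to 26 lower members. Without moderation of the variances there were 54 and 15. Of 33 named members, 25 were called, and 0 of these changed direction under any alternative run. Means near 0 with a wide range did: col-8, at -0.52, was 0.064 with preps 3 and 4 averaged and ran from -1.12 to 0.21 with single preps left out, col-184 from -0.080 to 0.96, col-122 from -0.41 to 0.69, col-20 from -0.41 to 0.72 and col-179 from -0.32 to 0.73. The counts of members with preps 1 and 2 above or below preps 3 and 4, looked at after the values were seen, were 63 and 19, 55 and 23 with arrays centred and 72 and 16 with arrays centred and scaled. The block correlation of the title code could not be estimated, so preps 3 and 4 were averaged. The alternative without members of high protein identity was not run, since protein sequences were not used here. The calls of col-10 (at an absolute mean of at least 1), col-40 (without moderation, adjusted p = 0.060) and col-164 (fit per probe) were lost, and col-50 gained one without prep 2, at -2.08. No paired analysis was possible because all preps belong to 1 group.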

Other observations

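Probes annotated to a numbered col gene together with another gene were in no comparison. The probe of col-14, which is also annotated to C46A5.4, had log2 ratios of 3.07, 3.04, 3.00 and 3.09 on preps 1 to 4, a mean of 3.05 ± 0.04. The probe of col-71 and Y49F6B.9 had a mean of 0.04 ± 0.16. The probe shared by col-179 with rpl-18 and other genes had -0.38 ± 0.15, and did not show the range of col-179's own probe.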
